A study of Mus musculus with 224 samples.

Results

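The unfolded protein response and endoplasmic reticulum (ER) chaperone genes of the mouse were examined as a set of 35 listed genes, found by the gene symbols that belong to the Ensembl identifiers of the deposited tables. All 35 were among the 12611 genes of the liver table and the 16542 genes of the visceral adipose table, and 34 were among the 13637 genes of the soleus muscle table, which had no entry for Derl3. Over the 3 tables together the set made up 35 of 17494 distinct genes. It held 11 ER chaperones and co-chaperones, 6 disulphide enzymes, 8 factors of ER-associated degradation, 6 stress sensors and transcription factors, 2 phosphatase subunits and 2 subunits of the translocon region.

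Secretory and membrane proteins fold inside the ER with the help of chaperones, lectins and enzymes that form disulphide bonds. When unfolded protein builds up, the sensors IRE1 alpha (Ern1), PERK (Eif2ak3) and ATF6 signal to the nucleus, where spliced Xbp1, Atf4 and cleaved Atf6 raise the genes for chaperones, degradation factors and, under lasting stress, Ddit3 (CHOP). Liver cells export large amounts of plasma protein and lipoprotein and carry much rough ER, and this response has been studied widely in obesity and insulin resistance.

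Bulk RNA was sequenced from the liver, the soleus muscle and the visceral fat of 3 inbred mouse strains, C57Bl/6J, DBA/2J (spelled DBA/2JJ in the sample labels) and BALB/cJ. Mice of each strain ate either regular chow (RC) or a diet high in fat (HFD), and the sample labels give 5, 13 or 33 days of diet, where the description of the series repeats 13 in place of 33. Each of the 18 groups of a tissue held 4 animals, so that 72 libraries per tissue were compared and 12 animals stood behind each strain and diet. No genotype beyond the strain, and no age, sex, diet composition or hour of collection, was given in the labels used here. Levels below are log2 CPM (read counts scaled to the size of the library). HFD minus RC differences come from limma models over all genes of a tissue, with Benjamini-Hochberg adjustment over all of those genes and a threshold of 0.05, and errors of differences are standard errors (SE).

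The tables held 18.1 to 32 M reads per liver library, 19.9 to 33.4 M per muscle library and 19.8 to 46.8 M per adipose library. Tissue markers were high in nearly all libraries: the summed level of 6 hepatocyte markers lay between 16.13 and 17.20 in liver, and that of 6 muscle fibre markers between 15.70 and 16.86 in muscle. The muscle library 1RC210S, a C57Bl/6J RC animal of day 33, did not have the slow-fibre profile of the other 71. Its slow myosin Myh7 stood at 6.20 against at least 12.11 in the others, and its fast myosin Myh4 at 15.62 against at most 11.83. In it 6 of the 34 genes of the set lay above and 5 below all other muscle libraries, a count that was not made over all muscle genes. The main muscle counts that change without 1RC210S are given both ways. In adipose tissue 2 BALB/cJ HFD libraries stood apart, 1 of day 5 and 1 of day 33. Their Adipoq levels were 2.79 and 3.61, against at least 9.12 in the other 70 adipose libraries, while Ins2, the insulin gene, stood at 17.81 and 18.39 against at most 8.19. In both of them 30 of the 35 genes of the set lay above all 70 other libraries, a count that was not made over all adipose genes. Adipose results are given with and without these 2 libraries. These are bulk tissues, in which fewer cells of a type and less RNA per cell cannot be told apart.

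Per kilobase of exon, the disulphide isomerase P4hb was the most abundant gene of the set in liver (mean 8.87 log2 CPM per kb) and in muscle (6.32), and the lectin chaperone Calr was the most abundant in adipose tissue (7.63). The lowest were Derl3 in liver (0.80) and adipose tissue (0.97), and Ero1lb in muscle (-1.16). Hspa5 (BiP), the main chaperone of the ER lumen and the protein that holds the sensors inactive, averaged 7.55 log2 CPM per kb in liver, 6.96 in adipose tissue without the 2 libraries and 5.99 in muscle. The tissue tables were normalized separately, so no test was made between tissues.

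Factors of this response bind short promoter elements, and the sequences are shown because several of the genes that moved in muscle carry one. The ER stress element ERSE is the block CCAAT followed, 9 bases of any kind later, by the block CCACG. It was searched on both strands from 250 bases before to 50 bases after the start of each gene, in RefSeq windows of the build GRCm38.p6. It was present in 10 of the 30 genes of the set that had a window. Of all genes with such windows 0.137% held it. Capitals mark both blocks of the element, read along the strand of the gene. Hsp90b1 held 2 copies in opposite orientation.
Hspa5, chr2:34772020-34772048, plus strand: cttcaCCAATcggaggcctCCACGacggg
Hsp90b1 distal, chr10:86705633-86705661, minus strand: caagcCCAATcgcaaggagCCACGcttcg
Hsp90b1 proximal, chr10:86705528-86705556, minus strand: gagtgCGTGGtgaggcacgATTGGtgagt
Calr, chr8:84847070-84847098, minus strand: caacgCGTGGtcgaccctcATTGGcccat
Canx, chr11:50325795-50325823, minus strand: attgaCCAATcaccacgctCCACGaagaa
Pdia6, chr12:17266486-17266514, plus strand: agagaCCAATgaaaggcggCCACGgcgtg

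The other 5 genes with ERSE were Derl3, Ero1lb, Dnajc3, Creld2 and Syvn1. Herpud1 carried ERSE-II (ATTGG, 1 base of any kind, CCACG, on either strand, in 0.0444% of all genes). It also carried the C/EBP-ATF response element CARE (TTGCATCA, on either strand, in 1.03% of all genes). Each is shown with its matched letters in capitals.
Herpud1 ERSE-II, chr8:94386372-94386392, plus strand: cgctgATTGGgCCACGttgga
Herpud1 CARE, chr8:94386312-94386329, plus strand: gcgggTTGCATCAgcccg

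ERSE-II and ERSE use the same blocks with another spacing and orientation, and no window of the set held both. Dnajb11 had an ERSE-II match just past its start. The 8-base element UPRE (TGACGTGG, 0.714% of all genes) was in none of the 30 windows, which says only that these letters are not there. A match describes the sequence and was not tested as a binding site.

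In soleus muscle, ER chaperone genes were higher on HFD. Of 34 genes tested over all strains, 12 (35.3%) passed the threshold, 11 of them higher, where 17.4% of all muscle genes passed and 8.98% passed as higher. The median difference of the set was 0.05 log2, against 0.00 for all genes. By role, 7 of 11 chaperones and co-chaperones, 2 of 6 disulphide enzymes and both phosphatase subunits rose, 1 of 7 degradation factors fell, and none of the 6 sensors and transcription factors or of the 2 translocon genes passed.

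Hspa5 led the chaperones. On RC its level ran from 7.12 to 8.61 log2 CPM over 36 animals (median 8.02), and on HFD from 7.44 to 9.20 (median 8.20), so that the diets overlapped when strains and days were pooled. With strain and day in the model the difference was 0.31 ± 0.05 log2 (1.24-fold higher on HFD, limma adjusted p = 1.04e-05). Hsp90b1 (GRP94), the ER member of the HSP90 family, rose by 0.21 ± 0.04 (limma adjusted p = 2.42e-05). The calcium-binding lectins Calr and Canx, which hold glycoproteins during folding, each rose by 0.12. The other chaperone genes that passed were Manf, a secreted ER-resident trophic factor (0.19), Hyou1, the large HSP110-type exchange factor for BiP (0.17), and Dnajb11, a BiP co-chaperone (0.08).

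The disulphide isomerases Pdia6 (0.16) and Pdia3 (0.15) passed as well, as did Ppp1r15b (0.09) and Ppp1r15a (0.18), the constitutive and the stress-induced subunit that guide a phosphatase to eIF2 alpha. The Ppp1r15a call stood at an adjusted p of 0.0477 by limma and was lost when any of 41 libraries was left out in turn. Herpud1, a membrane component of the degradation machinery, fell by 0.19 on the log2 scale (SE 0.04, limma adjusted p = 0.000613). The regulators showed differences near 0: Xbp1 0.07 ± 0.05 (limma adjusted p = 0.302), Atf4 0.04 ± 0.03 (adjusted p = 0.456) and Ddit3 0.02 ± 0.06 (adjusted p = 0.864). The other 19 genes below the threshold lay between Ero1lb at -0.17 and the co-chaperone Sdf2l1 at 0.16. Among them were the chaperones and folding factors Dnajc3 (0.09), Creld2 (0.06), Dnajb9 (-0.07) and Pdia4 (0.08), and the degradation factors Edem1 (0.14), Sel1l (-0.01) and Derl1 (0.01). The translocon-associated subunit Ssr1 stood at 0.00. Deposited gene totals do not separate spliced from unspliced Xbp1, and neither the sensors nor their proteins were assayed directly.

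**Figure D1:**
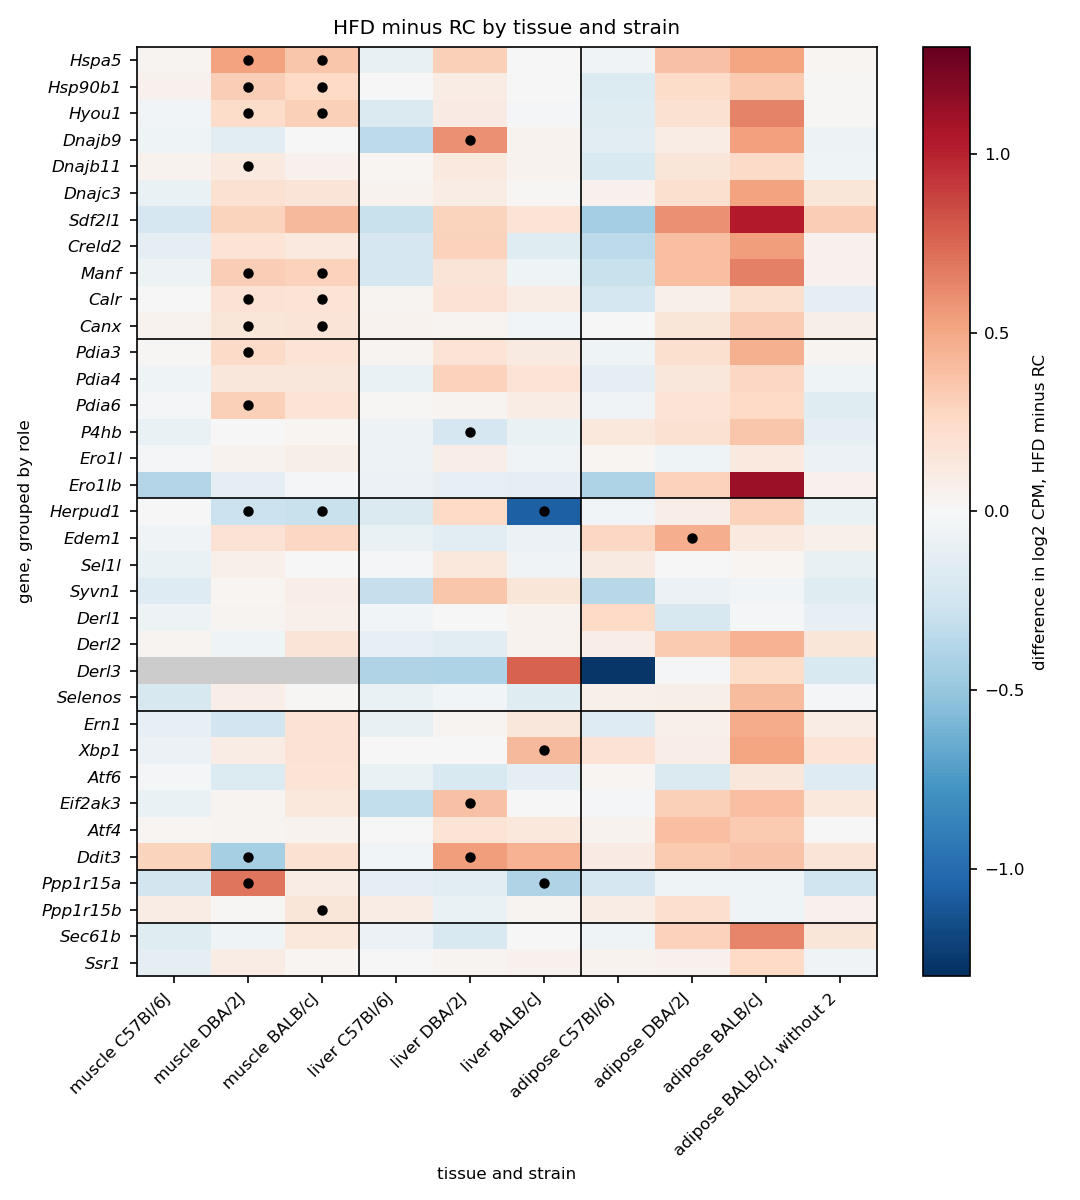
Difference in log2 CPM, HFD minus RC, for each gene of the set (vertical axis, grouped by role) in each tissue and strain (horizontal axis), with BALB/cJ adipose tissue also shown without the 2 libraries that stood apart; dots mark genes past the limma threshold and grey marks Derl3 in muscle. The chaperone block is raised in the DBA/2J and BALB/cJ muscle columns, where 7 and 6 of its 11 genes passed, and holds no call in the C57Bl/6J muscle column.

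The strains differed in this response for some of the genes. In DBA/2J muscle 12 of the 34 genes passed (8.73% of all genes), 10 higher (5.28% of all genes) and 2 lower. In BALB/cJ muscle 8 passed (11.5% of all genes), 7 higher (6.26% of all genes) and 1 lower. In C57Bl/6J muscle none passed by limma (5.75% of all genes), although 7 had an unadjusted p under 0.05, 6 of them lower and 1 higher (18.7% of all genes at that p). No other tool was run. The test of the diet difference between strains, which is the direct comparison, passed for 7 of the 34 genes (20.6%), against 9.83% of all muscle genes: Hspa5, Hyou1, Calr, Pdia6, Atf6, Ddit3 and Ppp1r15a. Without library 1RC210S these 7 passed along with Herpud1 and Hsp90b1, BALB/cJ had 11 calls in place of 8 (Derl2, Pdia6 and Sdf2l1 in addition) and DBA/2J had 13 in place of 12. Of the 7, the Calr call was lost when any of 21 libraries was left out in turn and the Atf6 call with any of 12. The Hyou1 call was lost with any of 11 and the Pdia6 call with any of 3. The Hspa5, Ddit3 and Ppp1r15a calls held throughout. With a replicate block the test between strains passed for 2 genes.

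Hspa5 in DBA/2J muscle ran from 7.95 to 8.54 on RC (median 8.11) and from 8.21 to 9.20 on HFD (median 8.65). In BALB/cJ the RC animals spanned 7.12 to 8.39 (median 7.41) and the HFD animals 7.43 to 8.74 (median 7.84). In C57Bl/6J the medians were 8.02 on RC and 8.03 on HFD. The diets overlapped in all 3 strains, and in DBA/2J the HFD median lay above the highest RC animal. The fitted difference was 0.52 ± 0.09 in DBA/2J (1.44-fold, limma adjusted p = 3.51e-05) and 0.04 ± 0.09 in C57Bl/6J (adjusted p = 0.863). BALB/cJ had 0.36 ± 0.09 (adjusted p = 0.00449). The DBA/2J difference exceeded the C57Bl/6J difference by 0.49 ± 0.12 (limma adjusted p = 0.0139), whereas BALB/cJ against C57Bl/6J gave 0.33 ± 0.12 (adjusted p = 0.0990) and did not pass.

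Hsp90b1 rose by 0.32 in DBA/2J and 0.26 in BALB/cJ, with medians moving from 7.45 to 7.71 and from 6.95 to 7.28. Its diet difference between strains did not pass with all libraries (limma adjusted p = 0.0757) and passed without 1RC210S (adjusted p = 0.0477). Manf rose by 0.32 in DBA/2J and 0.30 in BALB/cJ, Hyou1 by 0.24 and 0.31, Calr by 0.19 and 0.17, and Canx by 0.15 and 0.17. Pdia6 rose in DBA/2J (0.31 ± 0.06, limma adjusted p = 0.000703) and stood at 0.18 ± 0.06 in BALB/cJ (adjusted p = 0.056). Its DBA/2J difference exceeded that of C57Bl/6J by 0.34 ± 0.09 (adjusted p = 0.0214). Pdia3 (0.25) and Dnajb11 (0.13) passed in DBA/2J, and Ppp1r15b (0.15) in BALB/cJ.

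Ppp1r15a (GADD34) had the smallest p of the set in the muscle test of diet by strain. On RC its level in DBA/2J ran from 3.91 to 4.67 (median 4.38) and on HFD from 4.42 to 5.68 (median 5.22). In C57Bl/6J the medians were 4.77 on RC and 4.52 on HFD, and in BALB/cJ 4.70 and 4.71. The HFD median thus lay above the highest RC animal in DBA/2J, while the diets of the other strains lay over each other. The difference was 0.70 ± 0.12 in DBA/2J (1.62-fold, limma adjusted p = 3.64e-05), and it exceeded that of C57Bl/6J by 0.94 ± 0.16 (adjusted p = 0.000383) and that of BALB/cJ by 0.61 ± 0.16 (adjusted p = 0.0255).

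Ddit3, which encodes the stress-induced factor CHOP, went the other way in DBA/2J muscle. Its RC levels were 4.74 to 5.24 (median 5.00) and its HFD levels 4.13 to 4.98 (median 4.62). The C57Bl/6J medians were 4.23 on RC and 4.45 on HFD, below the DBA/2J RC range. The difference in DBA/2J was -0.43 ± 0.11 (limma adjusted p = 0.00811). In C57Bl/6J it was 0.29 ± 0.11 (adjusted p = 0.115), and BALB/cJ had 0.20 ± 0.11 (adjusted p = 0.246). DBA/2J differed in this from C57Bl/6J by -0.72 ± 0.16 (adjusted p = 0.00336).

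Herpud1 fell in DBA/2J muscle, from a median of 6.94 on RC to 6.68 on HFD, and in BALB/cJ muscle, from 6.87 to 6.49. The fitted differences were -0.27 ± 0.07 (limma adjusted p = 0.0062) and -0.29 ± 0.07 (adjusted p = 0.00459). In C57Bl/6J it was 0.00 ± 0.07. The diet difference of Herpud1 between strains did not pass in muscle (limma adjusted p = 0.0591) and passed without 1RC210S (adjusted p = 0.0197).

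**Figure D2:**
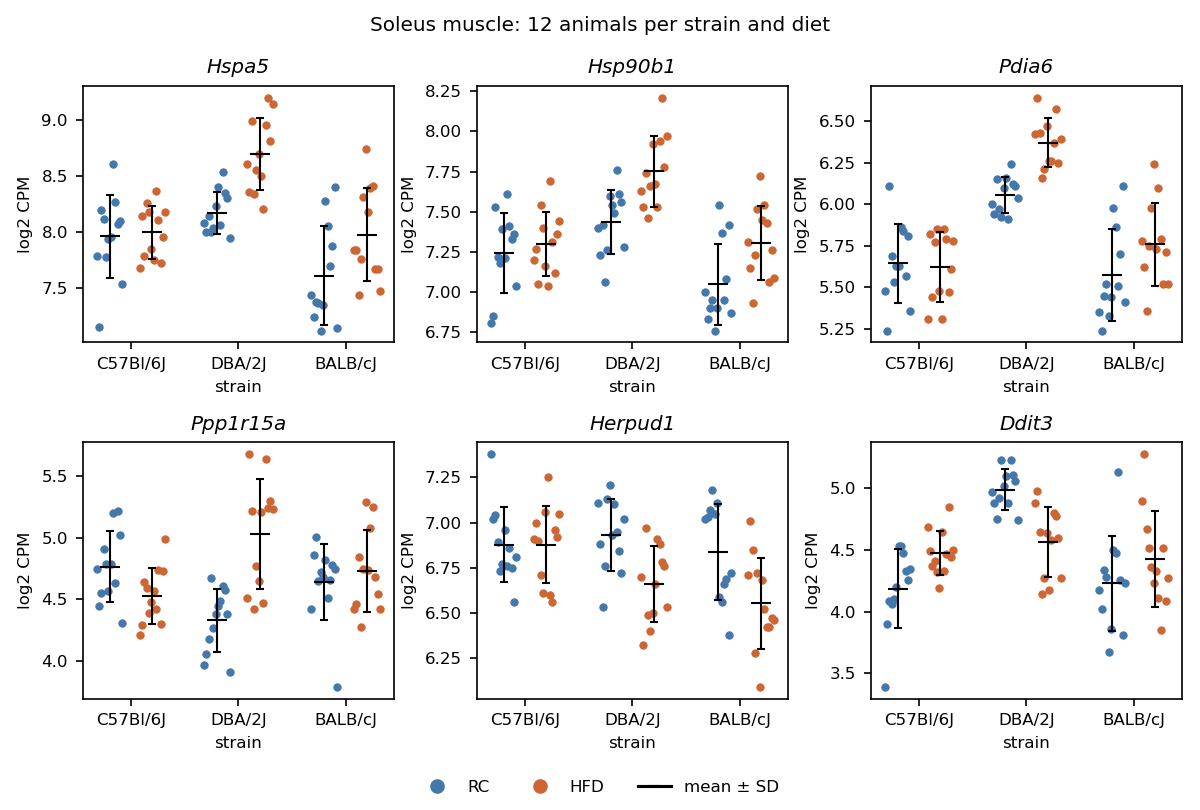
Log2 CPM of Hspa5, Hsp90b1, Pdia6, Ppp1r15a, Herpud1 and Ddit3 in soleus muscle by strain (horizontal axis) and diet; each point is 1 animal, 12 per strain and diet, and bars give the mean and SD. In DBA/2J the HFD median lies above the RC median for Hspa5 (8.65 and 8.11), Hsp90b1, Pdia6 and Ppp1r15a and below it for Ddit3 (4.62 and 5.00). With the days pooled, as here, the C57Bl/6J diets lie over each other.

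Time on the diet entered less clearly. No gene of the set passed the muscle test of the diet difference between days by limma (0.99% of all genes), and 3 had an unadjusted p under 0.05 (19.7% of all genes). Day by day, averaged over strains, 0 of 34 passed at day 5 (0.66% of all genes), 3 at day 13 (3.51%) and 9 at day 33 (17.8%), which is no test of a change over time. Without 1RC210S the counts were 0, 4 and 7. At day 5 limma gave 2 genes at an unadjusted p under 0.05 (15% of all genes), and Hspa5 stood at 0.17 ± 0.09 (limma adjusted p = 0.342). Hspa5 differed by 0.43 ± 0.09 at day 13 (adjusted p = 0.00148) and by 0.33 ± 0.09 at day 33 (adjusted p = 0.00674).

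Within strains, the DBA/2J calls at day 13 were 6 of 34, all higher (4.55% of all genes): Hspa5, Ppp1r15a, Calr, Hsp90b1, Pdia3 and Manf. Without 1RC210S they were 8, with Dnajc3 and Xbp1 in addition. Hspa5 there stood at 7.95, 8.30, 8.35 and 8.54 on RC and at 8.81, 8.96, 9.14 and 9.20 on HFD. Ppp1r15a stood at 3.91, 4.38, 4.58 and 4.61 on RC and at 5.23, 5.24, 5.30 and 5.64 on HFD. The diets did not overlap for either gene, and the differences were 0.74 ± 0.15 (limma adjusted p = 0.00106) and 0.98 ± 0.20 (adjusted p = 0.00115). At day 33 the DBA/2J calls were 3 falls (3.19% of all genes), in Herpud1 (-0.48), Atf6 (-0.43) and Ddit3 (-0.64). Ddit3 then stood at 4.88, 5.02, 5.10 and 5.23 on RC and at 4.18, 4.27, 4.58 and 4.64 on HFD, again without overlap.

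BALB/cJ muscle had 4 calls at day 5, all higher (3.7% of all genes), in Canx (0.34), Calr (0.27), Xbp1 (0.46) and Hyou1 (0.42). Xbp1, the transcription factor of the IRE1 arm, stood at 5.4, 5.47, 5.54 and 5.69 on RC and at 5.82, 5.92, 6.03 and 6.20 on HFD, so every HFD animal lay above every RC animal (limma adjusted p = 0.0404). At day 33 its 2 calls (3.79% of all genes) were Herpud1 (-0.61) and Hyou1 (0.44). In C57Bl/6J, Calr was lower on HFD at day 5 (-0.29 ± 0.07, limma adjusted p = 0.0393) and was the 1 call there (0.843% of all genes), with 19 of the 34 genes lower at an unadjusted p under 0.05, as were 6.27% of all genes. Its levels were 7.27, 7.43, 7.51 and 7.70 on RC and 7.07, 7.16, 7.19 and 7.34 on HFD, which overlap by 1 animal. At day 33 the 1 call in C57Bl/6J was Canx, higher by 0.32 (limma adjusted p = 0.0171, 4.33% of all genes), and without 1RC210S, an RC animal of that day, the difference was 0.21 (adjusted p = 0.376) and no gene passed. With all libraries, 6 genes were higher there at an unadjusted limma p under 0.05 (10.1% of all genes) and 1 was lower (10.8%). The direction in C57Bl/6J at day 33 was thus mostly opposite to that at day 5.

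The genes with an ERSE or ERSE-II in their window made up 11 of the 29 muscle genes of the set that had a window. Over all strains 6 of these 11 were higher on HFD and 1, Herpud1, was lower, with a median difference of 0.09. Of the 18 without either element 2 were higher, with a median of 0.03. Hyou1, Manf and Ppp1r15b, which were also higher on HFD, had no window and entered neither count. Derl1 and Atf6 had no window either. The counts by element are a description of genes chosen for their role and received no test.

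Further gene lists of the same pathways are read against the 17.4% of all muscle genes that passed. Of 19 further degradation genes 1 passed, of 18 further ER folding enzymes 2, of 15 further stress regulators 1, and of 20 ER to Golgi transport genes none. Among the ATF4 target and amino acid genes 4 of 20 passed, 2 higher and 2 lower, with Psat1, a serine synthesis enzyme, at 0.62 and Chac1, a glutathione-degrading enzyme, at -0.64. Heat shock genes of the cytosol and mitochondria, which answer to HSF1 rather than to the ER sensors, had 5 of 16 higher, led by Hspd1 at 0.25 and Hsp90aa1 at 0.34.

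Other marker lists moved with diet in the same muscle libraries and are read against the same 17.4% of all genes. Of 10 B cell markers 8 were higher on HFD, with a summed level of -0.14 to 4.92 on RC (median 1.05) and 0.74 to 6.5 on HFD (median 2.34). Of 6 adipocyte markers 3 were higher (4.99 to 8.29 on RC, 6.62 to 9.80 on HFD), and of 5 erythroid markers 4 were lower (7.01 to 9.86 on RC, 7.01 to 9.04 on HFD). Of 12 genes of the circadian clock 9 passed, 3 higher and 6 lower (summed level 8.78 to 10.03 on RC, 8.81 to 9.82 on HFD). In DBA/2J muscle alone, where 8.73% of all genes passed, the B cell list had no call. The erythroid list had 5 of 5 lower there, and the clock list again had 9 of 12 calls. The clock gene Arntl differed there by 1.61 (limma adjusted p = 1.96e-05). The part of these markers in the chaperone result was not tested.

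In liver, over all strains, 5 of 35 genes (14.3%) passed, against 21.2% of all liver genes, with a median difference of 0.02 for the set and 0.01 for all genes. None of the 11 chaperones and co-chaperones passed. Hspa5 ran from 8.95 to 10.99 on RC (median 9.43) and from 8.44 to 11 on HFD (median 9.56), a difference of 0.07 ± 0.11 (limma adjusted p = 0.694). Xbp1 (0.14 ± 0.08, adjusted p = 0.227) and Atf4 (0.10 ± 0.05, adjusted p = 0.101) did not pass either.

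Ddit3 was the single gene of the set that rose in liver over all strains, by 0.32 ± 0.10 (1.25-fold, limma adjusted p = 0.0211). Its levels were low and spread widely, from 0.64 to 3.69 on RC and from 1.23 to 3.74 on HFD. The other calls were falls, in Herpud1 (-0.33 ± 0.11, limma adjusted p = 0.0175), Ppp1r15a (-0.22 ± 0.05, adjusted p = 0.00137), the sensor Atf6 (-0.13 ± 0.05, adjusted p = 0.0281) and P4hb (-0.13 ± 0.04, adjusted p = 0.0253). With the range of the animal numbers as a covariate, the Ddit3 difference had an adjusted p of 0.0538 by limma and no longer passed.

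By strain, no gene of the set passed in C57Bl/6J liver (2.31% of all genes), with 1 at an unadjusted p under 0.05 (12.9% of all genes). At day 5 alone 11 of the 35 had an unadjusted limma p under 0.05 without passing. All 11 were lower on HFD, as were 4.66% of all genes. At days 13 and 33 that count was 0 (6.9% and 11.6% of all genes). DBA/2J had 4 of 35 past the threshold (21.6% of all genes), and BALB/cJ had 3 (14.8%). The DBA/2J genes were Dnajb9 (ERdj4), a BiP co-chaperone under XBP1 control, at 0.59 ± 0.18 (limma adjusted p = 0.0132), Ddit3 at 0.55 ± 0.18 (adjusted p = 0.0227), the sensor Eif2ak3 at 0.38 ± 0.15 (adjusted p = 0.0496) and P4hb at -0.22 ± 0.07 (adjusted p = 0.0218). Leaving out any of 46 libraries in turn ended the Eif2ak3 call, and quantile normalization ended the P4hb call (adjusted p = 0.118). The BALB/cJ genes were Herpud1, Ppp1r15a at -0.39 ± 0.09 (adjusted p = 0.00182) and Xbp1 at 0.42 ± 0.14 (adjusted p = 0.0384). The Xbp1 call was lost without any of 14 libraries and with the range of animal numbers as a covariate (adjusted p = 0.0555).

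Diet differences between strains passed for 3 of the 35 genes in liver (15.7% of all genes), Herpud1, Dnajb9 and Eif2ak3. Differences between days passed for Herpud1 and Pdia6 (3.35% of all genes). Herpud1 was thus the gene of the set whose liver diet difference depended on strain (limma adjusted p = 0.000777) and on day (adjusted p = 0.00243).

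In BALB/cJ liver at day 5, the RC animals had Herpud1 levels of 9.13, 9.51, 9.64 and 9.83 and the HFD animals 7.99, 8.03, 8.54 and 8.57. At day 33 the RC levels were 9.01, 9.34, 9.71 and 9.88 and the HFD levels 7.04, 7.55, 7.67 and 8.19. At day 13 they were 8.27, 8.87, 9.23 and 9.68 on RC and 7.85, 8.30, 9.74 and 9.88 on HFD. The diets did not overlap at days 5 and 33 and overlapped fully at day 13. The differences were -1.24 ± 0.32 at day 5 (limma adjusted p = 0.00603), -0.07 ± 0.32 at day 13 (adjusted p = 0.999) and -1.87 ± 0.32 at day 33 (adjusted p = 7.73e-05). In BALB/cJ liver 2 of the 35 genes passed at day 5 (12.5% of all genes), the second being Atf4 at 0.41. At day 33 the count was 3 (9.59%), with Ppp1r15a at -0.50 and Ero1l at -0.37. At day 13 it was 0 (0.365%), and limma gave 1 gene at an unadjusted p under 0.05 (6.18% of all genes).

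DBA/2J liver at day 13 showed the opposite direction. The RC animals had Herpud1 levels of 8.45, 8.54, 8.57 and 8.60 and the HFD animals 9.84, 9.90, 10.02 and 10.06. Dnajb9 stood at 4.95, 5.14, 5.19 and 5.33 on RC and at 6.34, 6.58, 6.60 and 6.73 on HFD. The diets were well separated for both genes. Each was 1.41 log2 higher on HFD (SE 0.32 for Herpud1 and 0.31 for Dnajb9, limma adjusted p = 0.00925 and 0.00919), and these were the 2 of 35 genes that passed in that group (1.91% of all genes). Hspa5 there was 0.84 ± 0.32 higher without passing (adjusted p = 0.169). At day 5 the DBA/2J calls were 3 falls (6.97% of all genes), in Derl2 (-0.51), P4hb (-0.41) and the translocon subunit Sec61b (-0.65). At day 33 the 2 calls (15.9% of all genes) were Edem1 (-0.47) and Atf4, the transcription factor of the PERK arm (0.56 ± 0.13, limma adjusted p = 0.00233). Atf4 then stood at 6.29, 6.34, 6.36 and 6.67 on RC and at 6.78, 6.95, 7.03 and 7.14 on HFD, without overlap. Over the 3 days, Herpud1 in BALB/cJ fell by 1.06 on the log2 scale (SE 0.18, limma adjusted p = 4.16e-05), and in DBA/2J the difference was 0.26 ± 0.18 (adjusted p = 0.339).

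**Figure D3:**
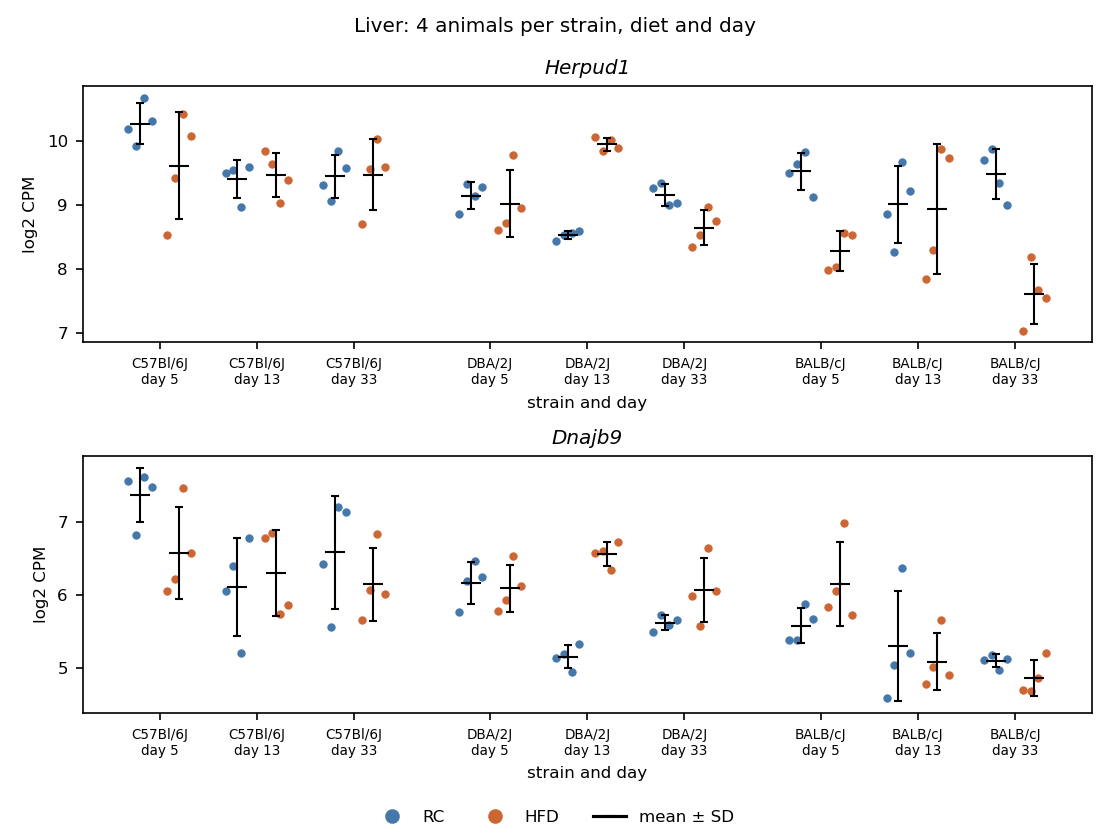
Log2 CPM of Herpud1 (top) and Dnajb9 (bottom) in liver by strain and day (horizontal axis) and diet; each point is 1 animal, 4 per group, with the group mean and SD. Herpud1 on HFD lies below every RC animal in BALB/cJ at days 5 and 33 and above every RC animal in DBA/2J at day 13, where Dnajb9 does the same.

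Further lists are read against the 21.2% of all liver genes that passed. Of 16 heat shock genes of the cytosol and mitochondria 8 were higher over all strains, with Hspb1 at 0.80 and Hspa1b at 0.79. In DBA/2J, where 21.6% of all genes passed, 14 of the 16 were higher, with a median of 0.62. Of 19 further degradation genes 8 passed, 6 of them lower, with the mannosidase-like Edem2 at -0.27. Of 18 ATF4 target and amino acid genes 6 passed, 5 higher, with Psat1 at 0.89. Of 6 hepatocyte markers 5 were lower on HFD, with summed levels of 16.36 to 17.20 on RC and 16.13 to 17.11 on HFD, and 3 of 5 erythroid markers were lower. The clock list had 2 of 12 genes lower over all strains and 7 of 12 changed in DBA/2J, where its summed level ran from 9.56 to 9.92 on RC and from 8.43 to 9.72 on HFD. The diet difference of that list between strains passed for 5 of 12 genes (15.7% of all genes), the same test in which Dnajb9 and Herpud1 passed. Its part in these results was not tested.

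The larger contrast in liver was between strains on chow. The test over the 3 strains on RC passed for 28 of 35 genes (80.0%), against 67.2% of all liver genes. DBA/2J against C57Bl/6J gave 20 calls (48.1% of all genes), 19 of them lower in DBA/2J, where 24.2% of all genes were lower. BALB/cJ against C57Bl/6J gave 25 calls (46.8% of all genes), 24 of them lower in BALB/cJ, where 23.9% of all genes were lower. Median differences of the set were -0.30 and -0.37, with all genes at -0.01 in both. Pdia6 alone was higher, by 0.25 in DBA/2J and 0.26 in BALB/cJ. Both comparisons share the C57Bl/6J animals.

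Among the chaperones, Hspa5 on RC ran from 9.20 to 10.99 in C57Bl/6J (median 10.08), from 9.11 to 9.93 in DBA/2J (median 9.42) and from 8.95 to 10.05 in BALB/cJ (median 9.18). The upper C57Bl/6J animals stood above all others, and the lower ones overlapped both strains. Relative to C57Bl/6J, Hspa5 differed by -0.57 ± 0.19 in DBA/2J (limma adjusted p = 0.00928) and by -0.81 ± 0.19 in BALB/cJ mice (adjusted p = 0.000304). Hyou1 medians were 8.02, 7.47 and 6.99 in the same order of strains, with differences of -0.54 and -1.08 from C57Bl/6J.

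Dnajb9 had the smallest p of the set in both comparisons with C57Bl/6J. Its RC levels were 5.21 to 7.61 in C57Bl/6J (median 6.80), 4.95 to 6.46 in DBA/2J (median 5.63) and 4.59 to 6.37 in BALB/cJ (median 5.19). The differences were -1.04 ± 0.18 (limma adjusted p = 2.76e-06) and -1.36 ± 0.18 (adjusted p = 5.68e-09). Of the disulphide enzymes, Ero1l, the oxidase that feeds the isomerases, was lower by similar amounts in both strains (-0.40 and -0.38), as was P4hb (-0.32 and -0.42), and Ero1lb, its pancreas-enriched paralog, differed by -0.52 and -0.80.

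Among the degradation factors Derl3 differed by -1.79 ± 0.50 in BALB/cJ, from a low and scattered level (0.18 to 4.52 in C57Bl/6J, -1.16 to 2.31 in BALB/cJ). Syvn1, the ubiquitin ligase HRD1, differed by -0.93. Sel1l, its partner in the membrane, differed by -0.26 in BALB/cJ and -0.28 in DBA/2J. Herpud1 was lower in DBA/2J (-0.76) and did not pass in BALB/cJ (-0.37). Among the regulators Ddit3 fell in the order C57Bl/6J, DBA/2J, BALB/cJ, with medians of 2.75, 2.18 and 1.32, and all 3 pairwise differences passed (-0.45, -1.26 and, BALB/cJ minus DBA/2J, -0.82). Eif2ak3 (-0.60 and -0.81) and Ern1 (-0.48 and -0.70) were lower in both strains. Xbp1 differed from its C57Bl/6J level by -0.70 ± 0.14 in BALB/cJ (limma adjusted p = 6.07e-05), and by -0.08 in DBA/2J without passing.

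BALB/cJ against DBA/2J gave 6 calls in liver, all lower in BALB/cJ (42.1% of all genes passed and 21.5% were lower). Among other lists, 13 of 16 heat shock genes of the cytosol and mitochondria were lower in BALB/cJ, and 14 of 16 in DBA/2J, relative to C57Bl/6J. Of all genes 23.9% and 24.2% were lower in those comparisons. Nupr1 and Asns, targets of ATF4, differed between BALB/cJ and C57Bl/6J by -3.19 and -2.64. The clock gene Nr1d1 was lower in BALB/cJ as well (-2.35, limma adjusted p = 0.000109) and Cry1 higher (1.24), and their part in the strain differences was not tested.

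**Figure D4:**
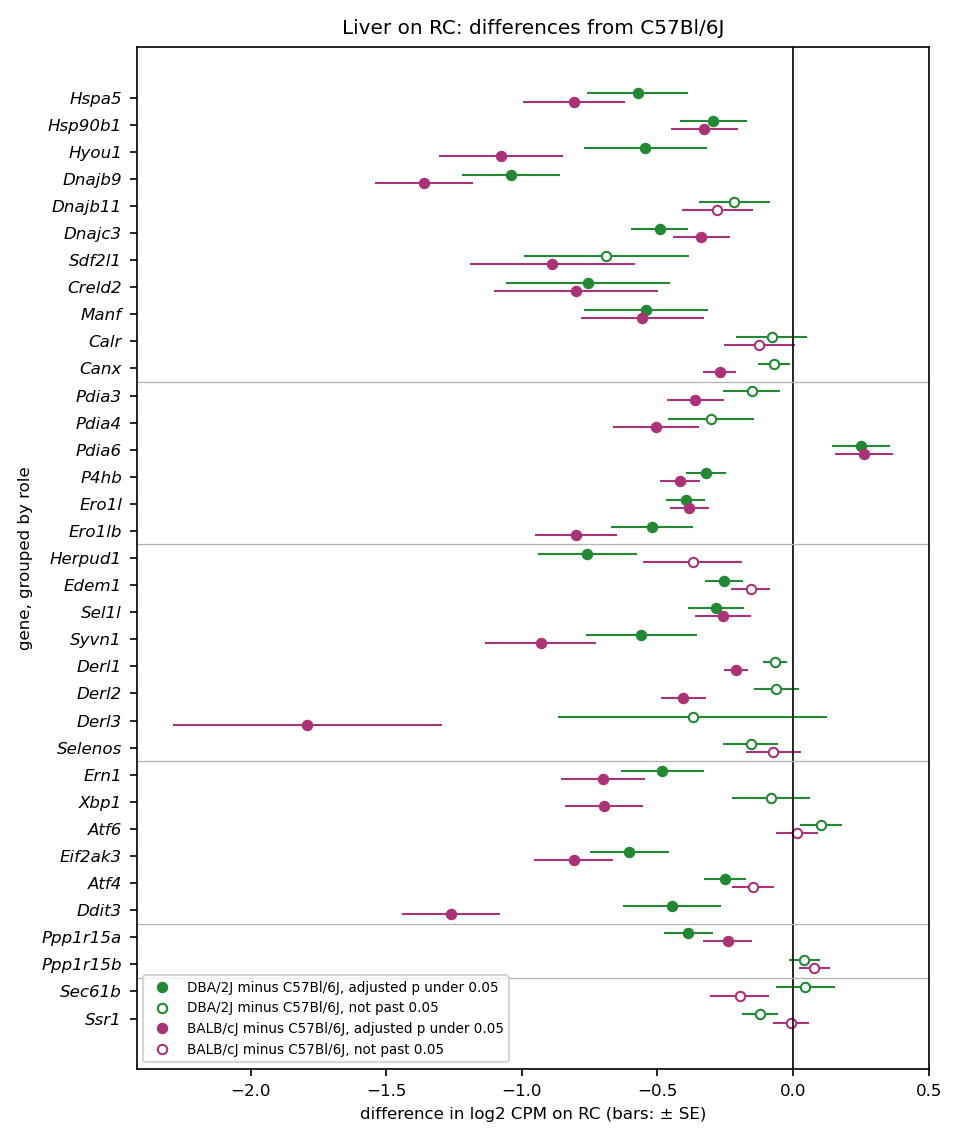
Difference in log2 CPM on RC in liver, DBA/2J or BALB/cJ minus C57Bl/6J, for each gene of the set, with bars for ± SE and filled points for genes past the limma threshold. Most points lie left of 0, with 19 and 24 called lower, and Pdia6 is the called gene on the right.

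The days were also compared on chow. In liver 5 of 35 genes passed the test over the 3 days on RC (14.3%, near the 10.4% of all genes): Dnajb9, Herpud1, Ppp1r15a, Derl1 and Eif2ak3. Between days 5 and 13, 5 genes fell (11.1% of all genes passed), with Dnajb9 at -0.85 and Herpud1 at -0.66. The count over the 3 days fell to 2 with the range of the animal numbers as a covariate and ran from 1 to 6 when each library was left out in turn. In muscle 13 of 34 passed (38.2%, against 7.85% of all genes), and 11 of them without 1RC210S. There, 12 passed between day 13 and day 33 (8.15% of all genes), 11 lower at day 33, with Manf at -0.54 ± 0.10 (limma adjusted p = 0.000986), Hspa5 at -0.46 ± 0.09 (adjusted p = 0.00123) and Herpud1, the exception, at 0.34 ± 0.07 (adjusted p = 0.00256). Median Hspa5 on RC was 8.04 at day 5, 8.08 at day 13 and 7.66 at day 33, with ranges of 7.24 to 8.61, 7.78 to 8.54 and 7.12 to 8.40. With the range of the animal numbers, which was spread unevenly over the days, as a covariate, none of the 13 muscle genes passed by limma, so day and number range cannot be told apart here.

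Strains also differed on chow in muscle. The test over strains passed for 26 of 34 genes (76.5%, against 61.4% of all genes). DBA/2J against C57Bl/6J gave 14 calls of 34, 8 higher and 6 lower, a count near the 37% of all genes. BALB/cJ against C57Bl/6J gave 14 calls, a count near the 44.5% of all genes, and all 14 were lower. At an unadjusted limma p under 0.05, 27.3% of all genes were lower in that comparison and 24.1% higher. BALB/cJ had 21 lower and 5 higher than DBA/2J (40.4% of all genes). Relative to C57Bl/6J, Hspa5 differed by 0.21 in DBA/2J (limma adjusted p = 0.0488) and by -0.35 in BALB/cJ mice (adjusted p = 0.000812). Ddit3 in DBA/2J exceeded the C57Bl/6J level by 0.81 ± 0.11 (limma adjusted p = 2.01e-08). Selenos, a selenoprotein of the degradation complex, differed between the same strains by -0.91 ± 0.10 (limma adjusted p = 1.05e-11). P4hb was lower in BALB/cJ than in either other strain (-0.35 and -0.41).

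In visceral adipose tissue 3 of 35 genes passed over all strains with all libraries (2.67% of all genes), and the same 3 passed without the 2 libraries that stood apart (3.59%). Edem1, a lectin that takes misfolded glycoproteins to degradation, was higher on HFD by 0.29 ± 0.05 (limma adjusted p = 0.000216) and by 0.27 ± 0.05 without them (adjusted p = 0.000341). Derl2, a channel component of the same pathway, was higher by 0.29 and 0.19 without them, and Ddit3 by 0.27 and 0.21. Hspa5 did not pass in either fit (0.28 ± 0.12, adjusted p = 0.243, and 0.12 ± 0.05, adjusted p = 0.229). Nor did Xbp1 (0.27 and 0.15) or Atf4 (0.26 and 0.14).

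The 2 libraries weighed most on BALB/cJ. With them the median diet difference of the set in BALB/cJ was 0.35 log2, and without them 0.01. No gene passed by limma either way (0.435% and 0.0% of all genes), with 17 at an unadjusted p under 0.05 with them (18.2% of all genes) and 1 without them (8.56%). The BALB/cJ HFD animals at day 5 had Hspa5 levels of 8.5, 8.85, 9.0 and 11.62, and those at day 33 levels of 8.84, 8.85, 8.95 and 11.81. In each of these groups 1 library stood far above the other 3. At day 33 alone 5 genes of the set passed in BALB/cJ with all libraries (10.7% of all genes), Sdf2l1, Sec61b, Eif2ak3, Manf and Creld2, and 1 passed without the 2 (1.81%). That gene was Sdf2l1, an ER-lumen co-chaperone, at 1.39 ± 0.38 (limma adjusted p = 0.0452), with levels of 2.17, 2.91, 2.92 and 3.82 on RC and 4.02, 4.38 and 4.65 in the 3 other HFD animals.

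In DBA/2J adipose tissue Edem1 alone passed with all libraries (0.48, 0.411% of all genes). Without the 2 BALB/cJ libraries, which enter that test only through the shared estimate of spread, 6 passed, all higher (1.0% of all genes): Edem1 (0.48 ± 0.08, limma adjusted p = 0.000339), Derl2 (0.34), Atf4 (0.39), Hspa5 (0.38 ± 0.09, adjusted p = 0.019), Manf (0.39) and Ddit3 (0.35). Edem1 in DBA/2J ran from 6.46 to 7.49 on RC (median 7.12) and from 7.26 to 7.85 on HFD (median 7.59). Hspa5 ran from 8.40 to 9.39 on RC (median 8.96) and from 8.91 to 9.82 on HFD (median 9.21). The diets overlapped for both genes. At day 33 alone Edem1 passed in DBA/2J with all libraries (0.70, 0.248% of all genes), and Edem1, Derl2, Pdia3 and Ppp1r15b passed without the 2 (0.846%). C57Bl/6J had no call in either fit (0.115% and 0.236% of all genes), with 3 genes at an unadjusted p under 0.05 with all libraries (5.88% of all genes) and 10 without the 2 (9.4%). Of those 10, 9 were lower on HFD (3.16% of all genes were lower) and 1 was higher. In DBA/2J 16 genes had an unadjusted limma p under 0.05 without the 2, all higher (5.94% of all genes were higher). With all libraries 5 did, also all higher (4.07%). The diet difference between strains passed for no gene by limma in either fit (0.0846% and 0.0967% of all genes), with 6 and 13 at an unadjusted p under 0.05 (7.73% and 5.21% of all genes). That between days passed for none (0.0% in both), with 0 and 6 at an unadjusted p under 0.05 (5.39% and 7.99%).

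**Figure D5:**
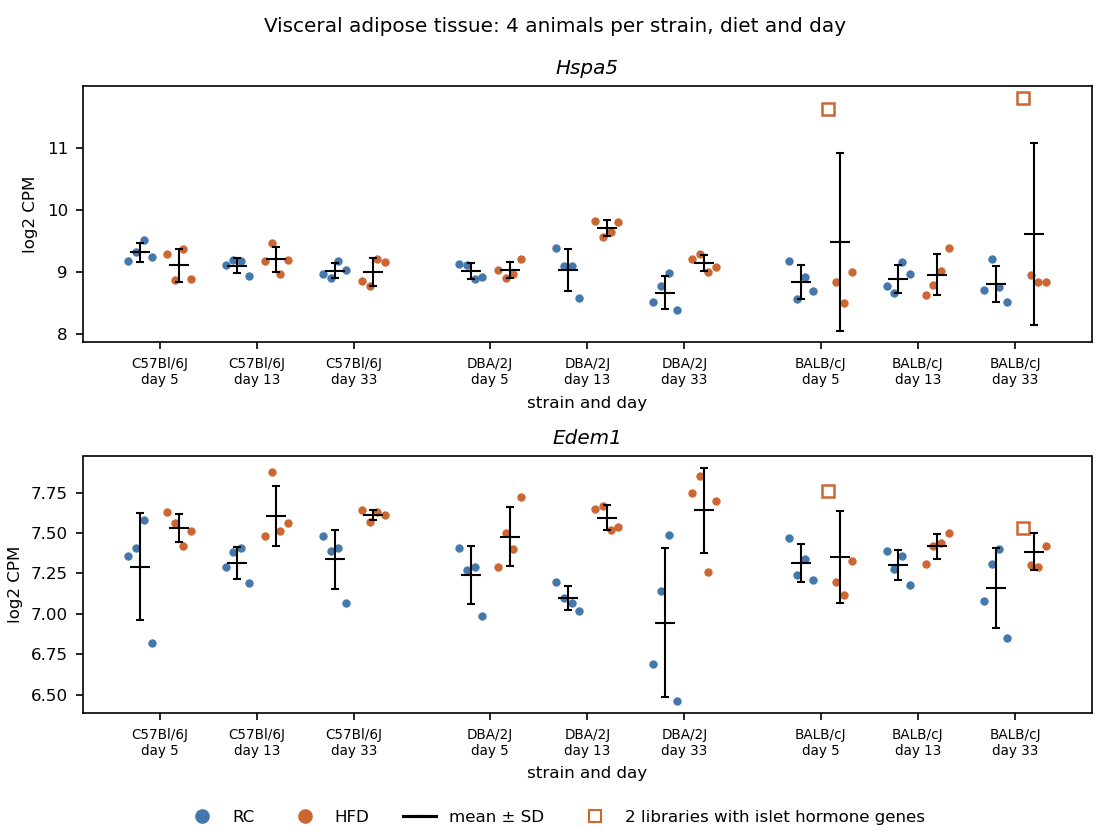
Log2 CPM of Hspa5 (top) and Edem1 (bottom) in visceral adipose tissue by strain and day (horizontal axis) and diet; each point is 1 animal, 4 per group, bars give the mean and SD, and open squares mark the 2 BALB/cJ HFD libraries with islet hormone transcripts. Their Hspa5 levels of 11.62 and 11.81 lie above all other libraries.

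On chow, adipose strain differences passed for 4 of 35 genes with all libraries (11.4%, against 41% of all genes) and for 21 without the 2 (60%, against 53.9%). In the latter fit DBA/2J was lower than C57Bl/6J for 16 genes and higher for 4 (51.4% of all genes), with Manf at -0.52 ± 0.10 (limma adjusted p = 7.65e-05) and Pdia4, a further disulphide isomerase, at -0.30 (adjusted p = 0.00074). BALB/cJ was lower than C57Bl/6J for 10 genes (16% of all genes), with Pdia4 at -0.42 (adjusted p = 5.31e-06) and Herpud1 at -0.45 (adjusted p = 3.13e-05). Markers of lymphocytes differed between the same animals. On RC all 10 B cell markers and all 8 T cell markers were lower in DBA/2J relative to C57Bl/6J. The summed B cell level there ran from 4.36 to 11.50 in C57Bl/6J (median 11.07) and from 3.43 to 11.44 in DBA/2J (median 4.32). Plasma cells, which are rich in ER, also had 8 of 10 markers lower. With the B cell level, which itself differed between these strains, as a covariate 20 genes passed the strain test in place of 21. The share of all genes was not counted in that fit. The part of these cells in the strain differences was not tested. The day test on RC passed for no gene by limma (0.0242% of all genes), with 1 at an unadjusted p under 0.05 (5.76% of all genes), and for none without the 2 libraries (0.127%), with 12 (9.76%).

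Within groups, many of the genes varied together from animal to animal. After the mean of each of the 18 groups was removed, the liver level of Hspa5 was correlated over 72 libraries with 29 of the 34 other genes (permutation test with 100000 draws, adjusted over the 34, smallest p possible 1e-05), with a median r of 0.73. The same test at an unadjusted p under 0.05 found 29 of the 34 (85.3%), against 24.5% of all liver genes, whose median r was -0.02. Hyou1 followed it most closely (r = 0.962, rho = 0.959, permutation adjusted p = 1.7e-05 for r and 1.8e-05 for rho, r = 0.955 without the 2 libraries farthest from the median of Hspa5). Manf (r = 0.956) and Creld2 (r = 0.954), both products of the ER lumen, came next. Atf4 (r = 0.259, permutation adjusted p = 0.118), Ppp1r15a (r = -0.057, adjusted p = 0.674) and Ppp1r15b (r = -0.110, adjusted p = 0.484) did not pass, and Ddit3 did (r = 0.546).

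In muscle the same measure passed for 18 of 33 genes, with a median r of 0.34. At an unadjusted permutation p under 0.05 it found 22 of 33 (66.7%), against 12.3% of all muscle genes, whose median r was -0.01, and 21 without 1RC210S. Hsp90b1 (r = 0.799, rho = 0.792, permutation adjusted p = 8.2e-05 for r and 6.6e-05 for rho, r = 0.791 without the 2 farthest libraries), Manf (r = 0.771) and Pdia6 (r = 0.733) were the closest. Herpud1 (r = -0.176, adjusted p = 0.301) and Ddit3 (r = 0.122, adjusted p = 0.50) did not pass. In adipose tissue 27 of 34 passed with all libraries and 20 without the 2 (median r 0.34). Unadjusted, 27 (79.4%) and 21 (61.8%) passed, against 50.7% and 45% of all adipose genes, whose median r was -0.04 and 0.03. Without the 2, Canx (r = 0.740) and Pdia6 (r = 0.734) were the closest. The libraries share the normalization of their table, and genes of 1 library are not independent.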

How the data were processed

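Messenger RNA libraries that keep the strand, per the labels' protocols, were made from each of the 3 tissues. STAR 2.5.3a, edgeR and the build GRCm38 are named in the submitters' processing notes. The deposited tables hold log2 CPM values made by the authors, 1 table per tissue, normalized separately. Back-transformed low values were whole multiples of 1 read within 0.05 in 100.0% of cases in each tissue. Of 224 libraries in the labels 216 had a column. The other 8, repeat liver libraries, were not analysed here. Symbols were matched by Ensembl identifier to GENCODE M21.

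Each tissue was fitted with limma 3.58.1 (R 4.3.3), with 1 mean per group of strain, diet and day (54 residual degrees of freedom) and a variance trend, for genes with log2 CPM of at least 0 in at least 4 animals. The fit and the covariation script (Python 3.11.15, numpy 2.4.6) were tested on simulated data. Titles carry animal numbers, so p-values measure the spread between animals. Derl3 in liver and adipose tissue, Ddit3 in liver, and Ero1lb and Sdf2l1 in muscle had levels under 2 CPM in some libraries, where counting error is largest.

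The genes and lists were chosen with earlier results of these data known. The rule for naming was that all 35 genes are accounted for, that Hspa5, Xbp1, Atf4, Ddit3 and the 3 called genes of smallest p per comparison get values, and that up to 3 called genes of each other list may be named. Genes further described for their role or sequence were chosen after their values were seen. Alternatives were no filter, quantile normalization, 1 CPM added, no trend, number range as a covariate, a replicate block and leave-one-out, and, added after seeing the data, adipose tissue without 2 libraries, B cell and hepatocyte covariates and covariation in subsets.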

Additional observations from a re-analysis of the deposited data

Results flagged for a closer look

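Over the 54 groups of 4 animals, Hspa5 was checked in every tissue and Herpud1 in liver, 72 checks in all. In 4 of the 72 checks 1 animal stood apart from the other 3 relative to their spread. Chance alone would mark about 1 in 20, and 4 of 72 is near that rate. Of these 4, however, 2 were the adipose libraries that also stood apart in their tissue markers, and the rate does not describe those. Hspa5 in liver stood at 9.33 in a BALB/cJ RC animal at day 5, with the other 3 between 8.99 and 9.04. Herpud1 in liver stood at 8.98 in a C57Bl/6J RC animal at day 13, with the others between 9.51 and 9.60. Hspa5 in adipose tissue stood at 11.62 in a BALB/cJ HFD animal at day 5 (others 8.5 to 9.0) and at 11.81 in a BALB/cJ HFD animal at day 33 (others 8.84 to 8.95), the 2 libraries with insulin transcripts.

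A diet difference that depended on strain was found in liver, by limma F tests over all genes, for Herpud1 (adjusted p = 0.000777), Dnajb9 (0.0228) and Eif2ak3 (0.038). One that depended on day was found in liver for Herpud1 (limma adjusted p = 0.00243) and Pdia6 (0.0351). In muscle the diet difference depended on strain for Ppp1r15a (limma adjusted p = 0.000419), Ddit3 (0.00234), Hspa5 (0.0169), Pdia6 (0.0297), Hyou1 (0.0352), Atf6 (0.0357) and Calr (0.041).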

How the results depend on the processing

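Counts of genes past the threshold stayed within 1.5 times the reported count in 188 alternatives and moved further in 31, and no reported difference reversed. Among the alternatives, shares of all genes were counted only for the fit without the 2 adipose libraries. The other moved counts therefore do not show a change particular to the set. Leaving out 1 library in turn gave 2 to 5 genes for the liver DBA/2J diet test (4 reported, lowest without HFD day 5 library 2HF202L), 1 to 2 for liver diet by day (2), 1 to 6 for liver day on RC (5), 0 to 1 for muscle C57Bl/6J diet (0, with Ddit3 passing without RC day 33 library 1RC235S), 4 to 9 for muscle diet by strain (7, lowest without C57Bl/6J HFD library 1HF250S of day 5 or 1HF209S of day 33), 0 to 1 for muscle diet by day (0), 0 to 5 for adipose BALB/cJ diet (0, highest without HFD day 5 library 3HF202V) and 2 to 8 for adipose strain on RC (4). With the number range as a covariate, liver day on RC gave 2, muscle day on RC 0 (13 reported), adipose diet 5 (3), adipose BALB/cJ diet 8 (0) and adipose strain on RC 9 (4). Quantile normalization gave 3 for liver day on RC and 7 for adipose strain on RC. Without the 2 adipose libraries, DBA/2J diet gave 6 (1) and strain on RC 21 (4). With the B cell level added to that fit, adipose diet gave 12, C57Bl/6J 1 (0), DBA/2J 13, diet by strain 1 (0) and strain on RC 20. Covariation with Hspa5 in adipose tissue passed for 27 genes over all 72 libraries and for 20 over the 70 without the 2. Within those 70 it passed for 10 genes in 38 libraries of high B cell level and for 18 in 24 of low level. These subsets differ in size as well as in B cell level. The cause was not tested.

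Same-numbered HFD and RC animals of a strain and day (20 pairs per tissue) had a median r of 0.133, 0.002 and -0.359 in liver, muscle and adipose tissue. Other pairs had -0.012, -0.016 and 0.153. Single same-numbered pairs ran from -0.429 to 0.586 in liver, from -0.85 to 0.761 in muscle and from -0.826 to 0.616 in adipose tissue. These values do not settle whether the numbers pair the samples, and the main fits took the animals as unpaired. With a replicate block the counts were 2 for liver diet (5 reported), 1 for liver diet by day (2), 17 for liver strain on RC (28), 2 for muscle diet by strain (7), 1 for adipose diet (3), 5 for adipose BALB/cJ diet (0) and 2 for adipose strain on RC (4). Shares of all genes were not counted with the block, and day on RC could not be fitted with it.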
